A study of Homo sapiens with 24 samples.

Results

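CDK1, the kinase that drives entry into mitosis, is held inactive by phosphates that WEE1 and PKMYT1 (Myt1) place on it, and is switched on when a CDC25 phosphatase removes them. WEE1 acts in the nucleus and PKMYT1 at membranes of the endoplasmic reticulum and Golgi. CDC25A acts from the G1/S transition onwards, and CDC25B and CDC25C are best known for their part at the G2/M transition. The data described here are the splicing measurements of these 5 genes in HCT116, a human colorectal cancer cell line, in which E7107, a modulator of the SF3b complex, was tested against DMSO in cells expressing WT or Y36C PHF5A. PHF5A is a subunit of SF3b, the part of the U2 snRNP that recognises the intron branch point, and SF3B1 is its largest subunit.

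The members were the 788 rows that lay on the strand and within the GRCh37 span of CDC25A, CDC25B, CDC25C, WEE1 or PKMYT1, out of 1830076 rows in each file. They comprised 252 boundary rows, which give reads running unspliced across an exon–intron boundary, and 536 spliced rows, each counted at one end of a splice junction. The unit was the percent spliced in (PSI), the percentage of reads at a splice site that used a given junction or, for a boundary row, that crossed the boundary. PSI of boundary rows is called intron retention (IR) PSI below and that of junctions skipping exons is called exon-skipping (ES) PSI. Where RNA is spliced at another site, reads crossing a boundary can lie within an exon of that RNA. IR PSI at such a boundary need not be intron retention. Because PSI is a share, more unspliced RNA and less spliced RNA cannot be told apart, and an ES PSI falls when IR at the same splice site takes a larger share.

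The 4 groups were HCT116 cells expressing WT PHF5A under DMSO, the same cells under E7107, cells expressing Y36C PHF5A under DMSO, and the latter under E7107, with 6 samples each and 24 in all. Per the study's methods, PHF5A was introduced by lentivirus into parental HCT116 cells, infected cells were selected with an antibiotic, and treatment lasted 6 h. No step removing the endogenous PHF5A gene or isolating single clones of these cells is described. The labels give no dose of E7107, and none is given here. The PHF5A allele itself was not checked in these files. Treatment was in hexaplicate per the methods, which with the labels do not say whether the 6 came from independently grown cultures, so p-values measure the spread between these samples, which may be technical. Read counts are not in the files and the depth behind each PSI is unknown. Of 638460 splice sites in the files, between 281734 and 284117 had reads in the samples of WT cells under E7107, against 329014 to 340662 in the other 18 samples.

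The principal transcripts of the 5 genes hold 60 introns and 120 intron boundaries, of which 118 had reads in all 24 samples. E7107 in WT cells was followed by a higher IR PSI across WEE1, CDC25A and CDC25B, by a smaller rise in part of PKMYT1, and by no called boundary in CDC25C. In Y36C cells the median difference from DMSO was 0.0860 percentage points over the boundaries of WEE1 and 0.193 over those of CDC25A, and part of the boundaries of CDC25B and most of those of PKMYT1 rose. Over the 118 boundaries, the median difference between E7107 and DMSO was 26.1 percentage points in WT cells and 0.857 percentage points in Y36C cells. The medians over all boundary rows of the series, taken without a filter on low values, were 4.43 and 0.443 percentage points. All boundary rows include splice sites outside principal transcripts, here and in the shares below, so they are not a like set.

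Each row was tested with limma after PSI had been turned into natural-log odds, and an adjusted p of 0.05 or less over all rows was taken as a call. In WT cells 93 of the 120 boundaries passed the filter on low values, and 84 were called higher under E7107 and 0 lower. Of all boundary rows that passed, 70.9% were called higher and 5.78% lower. In Y36C cells 62 boundaries passed, and 32 were called higher and 0 lower, where 27.5% of all boundary rows were called higher and 1.43% lower. A boundary at or near 0 under DMSO passes only if it is high under E7107, so the counts that passed are not a sample of all boundaries. Without the filter, 84 of 118 boundaries were called higher in WT cells against 40.5% of all boundary rows, and 28 of 120 in Y36C cells against 7.43%. In the same fits 0 and 1 of them were called lower, against 3.11% and 0.312%. Few boundary rows of the 5 genes outside the principal transcripts passed the filter. In WT cells 7 did, with 2 called higher and 2 lower, and in Y36C cells 9 did, with 2 called higher and 0 lower.

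**Figure D1:**
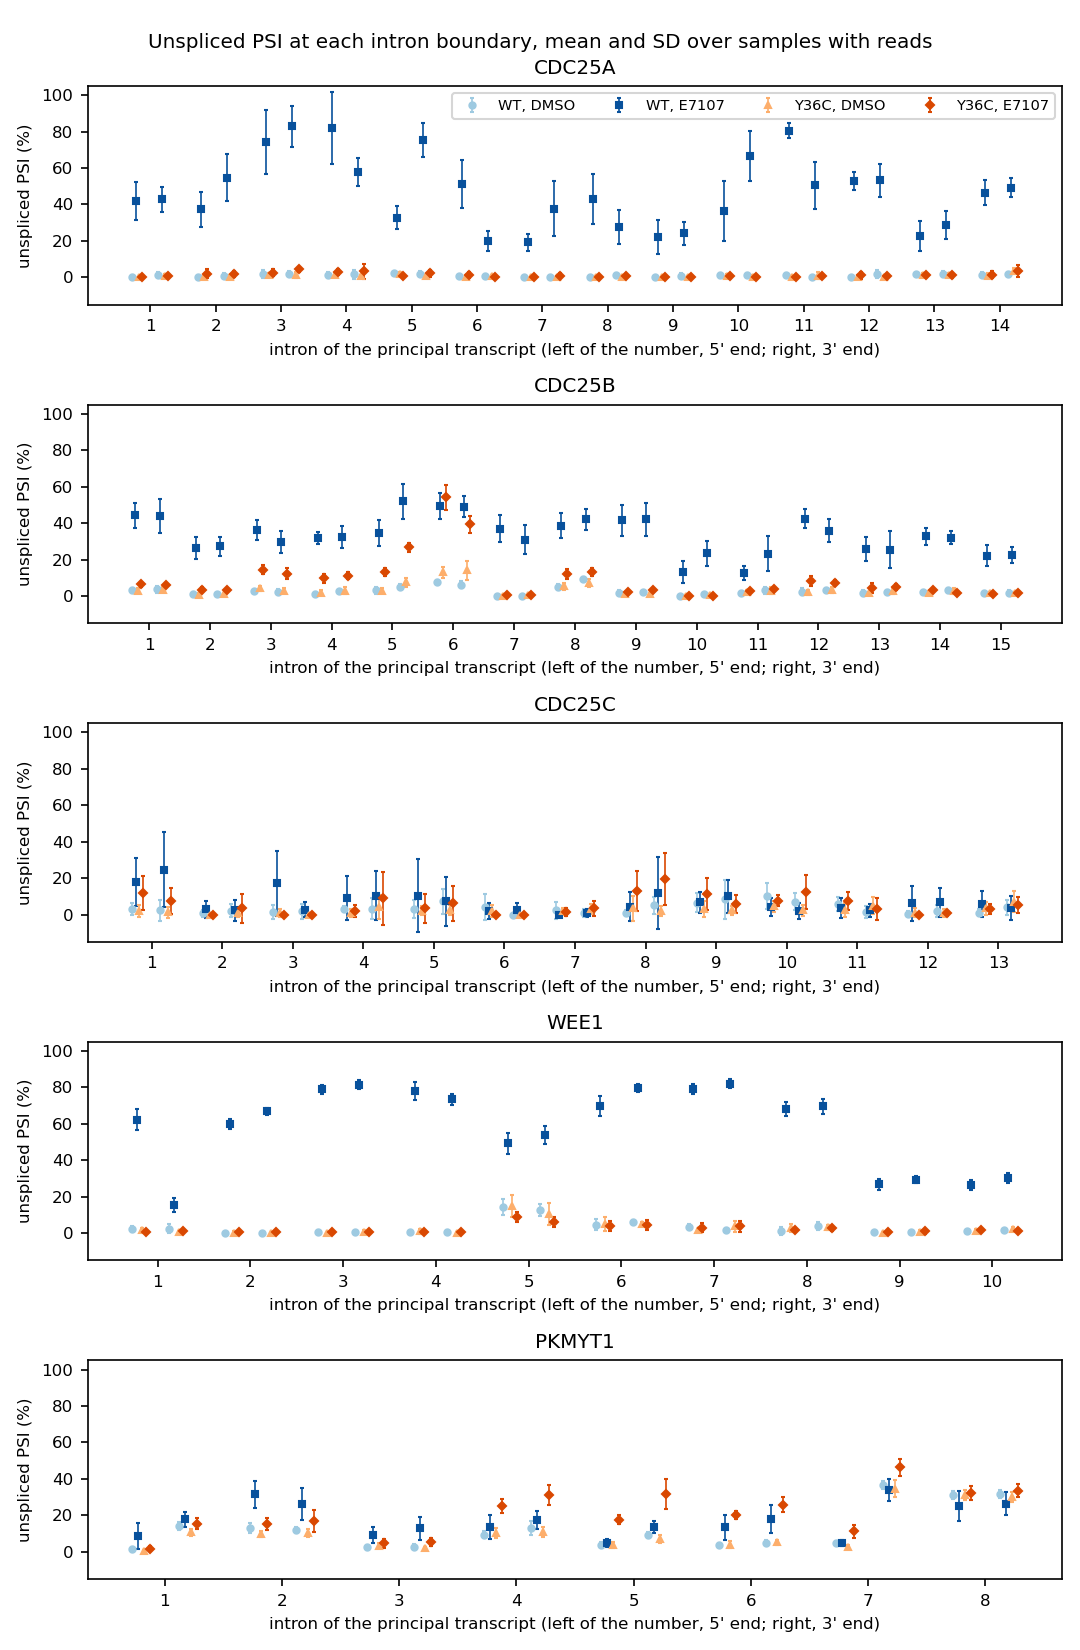
IR PSI in percent (y axis) at the 5′ and 3′ end of every intron of the 5 principal transcripts (x axis), with points for the mean and bars for the SD over the samples with reads in each of the 4 groups. WEE1 and CDC25A separate WT cells under E7107 from the other 3 groups at every boundary, CDC25B shows intermediate values in Y36C cells under E7107 at introns 3 to 5, and PKMYT1 introns 4 to 6 are highest in Y36C cells under E7107.

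The mean IR PSI over the boundaries of a gene placed the genes in a different order in the 2 genotypes. In WT cells under E7107 it was 59.0% ± 1.13 (SD, n = 6) for WEE1, 44.5% ± 3.52 for CDC25A, 33.3% ± 1.17 for CDC25B, 17.3% ± 3.22 for PKMYT1 and 6.79% ± 2.81 for CDC25C. These ranges over 6 samples did not overlap between neighbours in that order. In Y36C cells under E7107 the order was PKMYT1 at 20.9% ± 1.26, CDC25B at 8.99% ± 0.470, CDC25C at 5.25% ± 2.43, WEE1 at 2.23% ± 0.432 and CDC25A at 1.07% ± 0.289. There CDC25C, which ran from 2.67% to 9.10%, overlapped with both CDC25B and WEE1. Under DMSO PKMYT1 was highest in both genotypes, with 12.1% ± 0.394 in WT cells and 10.2% to 12.1% in the 6 samples of Y36C cells, and the other 4 genes lay between 0.643% and 3.40%. Without 3 PKMYT1 boundaries that lie inside a gene on the opposite strand (described with PKMYT1), its means were 7.25% ± 0.478 and 6.16% ± 0.321 under DMSO and 14.7% ± 3.16 and 17.0% ± 1.10 under E7107 in WT and Y36C cells, and its place in each order was as before.

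**Figure D2:**
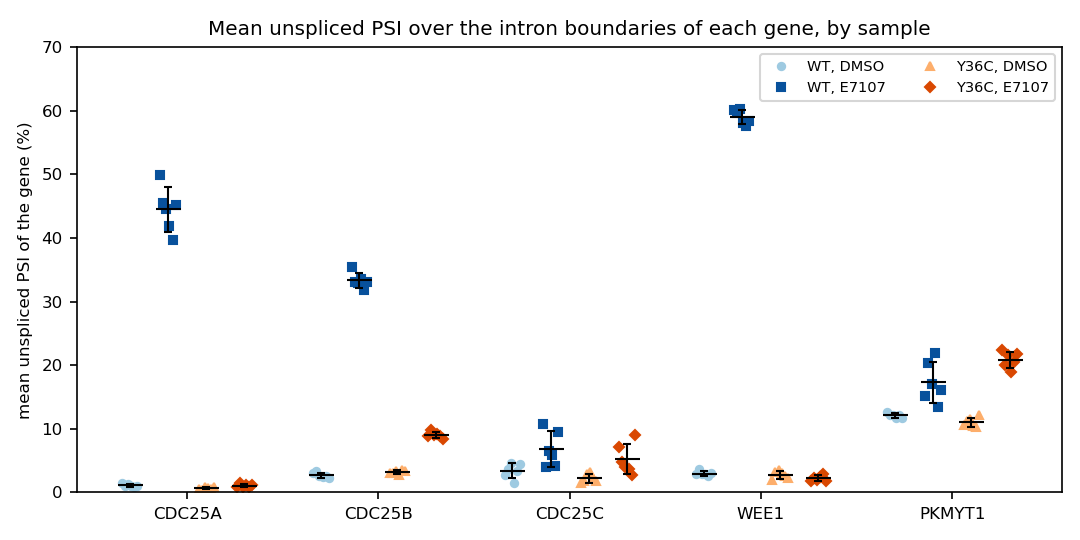
Mean IR PSI in percent over the intron boundaries with reads in all 24 samples (26 in CDC25A, 30 in CDC25B, 26 in CDC25C, 20 in WEE1, 16 in PKMYT1), with 1 point per sample, a black line for the mean and bars for the SD over 6 samples. The 6 samples of WT cells under E7107 lie between 57.5% and 60.3% for WEE1, and the 6 of Y36C cells under E7107 lie between 1.83% and 2.97%.

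WEE1, the nuclear kinase of the pair, lies at chr11:9595217-9615004 on the plus strand and has 10 introns with a median GC content of 31.6%. Its gene mean in WT cells ran from a lowest value of 2.54% through a median of 2.89% to a highest of 3.61% under DMSO, and from 57.5% through 59.0% to 60.3% under E7107. In Y36C cells the values were 1.89%, 2.84% and 3.58% under DMSO and 1.83%, 2.14% and 2.97% under E7107. The samples of WT cells under E7107 stood apart from all others, and the 2 groups of Y36C cells overlapped. All 20 boundaries were called higher in WT cells, and of the 10 that passed the filter in Y36C cells 0 were called (2 at an unadjusted p under 0.05, and 0 without the filter).

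The largest difference in WEE1, and in all 5 genes, was at the 3′ end of intron 3. The IR PSI there was between 0% and 2.17% in the 6 samples of WT cells under DMSO and between 78.5% and 85.8% under E7107, a mean difference of 81.0 percentage points (log odds 5.86 ± 0.20 SE, limma adjusted p = 5.93e-10). In Y36C cells it was 0.578% ± 0.896 under DMSO and 0.841% ± 0.915 under E7107. The interaction of genotype and treatment was −5.68 ± 0.36 on the log-odds scale (adjusted p = 1.12e-11).

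The WEE1 introns were not retained alike. Introns 2 to 4 and 6 to 8 had an IR PSI of 60.1% to 82.0% in WT cells under E7107, whereas both ends of introns 9 and 10, next to the 3′ end of the gene, lay between 26.5% and 30.3%. Intron 5 had the highest IR PSI of WEE1 under DMSO, at 14.2% ± 4.33 at its 5′ end in WT cells and 14.8% ± 6.04 in Y36C cells, and it reached 49.2% ± 5.72 in WT cells under E7107. In Y36C cells under E7107 the same end had 8.95% ± 2.64, and the difference from DMSO did not pass the test (adjusted p = 0.138). Introns 3 and 9 are shown because they mark the 2 levels of retention within WEE1. Both have a low GC content, of 25.9% and 26.4%. Capitals mark the last 10 bases of the upstream exon and the first 10 of the downstream exon, read 5′ to 3′ on the transcribed strand of GRCh37.
WEE1 intron 3 (chr11:9597841-9598033, plus strand): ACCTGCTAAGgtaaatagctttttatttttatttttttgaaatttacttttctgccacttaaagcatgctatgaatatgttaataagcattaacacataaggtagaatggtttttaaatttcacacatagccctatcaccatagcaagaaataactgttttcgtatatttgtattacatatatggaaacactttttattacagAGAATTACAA
WEE1 intron 9 (chr11:9608167-9608257, plus strand): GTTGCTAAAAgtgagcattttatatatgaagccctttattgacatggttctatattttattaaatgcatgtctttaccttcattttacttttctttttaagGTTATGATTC

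The smallest difference among the WEE1 boundaries was at the 3′ end of intron 1, where IR PSI went from 2.44% ± 2.55 to 15.5% ± 3.69 in WT cells (adjusted p = 0.000292). At that 3′ splice site another junction took most of the reads. It joined an annotated 5′ splice site inside intron 1 to exon 2 (intron chr11:9596923-9597434), and its PSI was between 0% and 2.70% in WT cells under DMSO and between 53.3% and 67.4% under E7107, with means of 0.765% and 58.9% (log odds 4.57 ± 0.26, adjusted p = 2.87e-08). In Y36C cells its mean was 1.37% under DMSO and 0.643% under E7107. The 2 WT groups did not overlap, and the 3 groups other than WT under E7107 did. The 5′ end of intron 1 itself had an IR PSI of 62.2% ± 5.80 in WT cells under E7107. RNA spliced at the site inside intron 1 may cross that end, so the value need not be retention of the whole intron. The part of such RNA was not tested, and the gene mean of WEE1 includes this boundary. The 5′ splice site of this junction is shown because no other junction called higher in WEE1 rose more, with the last 10 bases of the exon in capitals.
WEE1 alternative 5′ splice site (chr11:9596913-9596952, plus strand): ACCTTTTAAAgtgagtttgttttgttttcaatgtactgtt

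Exon skipping in WEE1 was small and was seen in WT cells. Junctions skipping exon 3, exon 4, exons 3 and 4, exon 7 and exon 8 were called higher in WT cells at both ends, and none of the 28 skipping rows of WEE1 passed the filter in Y36C cells. The largest skipped exon 3, with an ES PSI of 0% in all 6 samples under DMSO and 5.38% to 9.55% under E7107 (mean 6.91% ± 1.47). In Y36C cells under E7107 1 sample had 0.595% and the other 5 had 0%.

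CDC25A, the phosphatase of the family that acts earliest in the cycle, lies at chr3:48198636-48229907 on the minus strand and has 14 introns with a median GC content of 43.5%. Its gene mean was 0.862%, 1.01% and 1.51% (lowest, median and highest of 6) in WT cells under DMSO and 39.6%, 44.9% and 50.0% under E7107. In Y36C cells it was 0.380%, 0.645% and 0.861% under DMSO and 0.786%, 1.02% and 1.56% under E7107. The WT groups were far apart, and the Y36C groups overlapped. All 26 boundaries that passed the filter in WT cells were called higher. Intron 3 was not tested there, because 1 of the 6 samples under E7107 had no reads at its splice sites, and the other 5 had a mean IR PSI of 74.1% at the 5′ end and 82.9% at the 3′ end. In Y36C cells 4 boundaries passed the filter and 1 was called, the 3′ end of intron 3 (1.16% ± 1.61 under DMSO, 4.33% ± 1.23 under E7107, adjusted p = 0.019). It was not called without the filter, where 0 CDC25A boundaries were.

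Among the boundaries of CDC25A with reads in all 24 samples, the largest difference in WT cells was at the 5′ end of intron 4, from 1.44% ± 1.56 to 82.0% ± 19.8 (log odds 5.59 ± 0.47, adjusted p = 7.54e-07). Replicate 2 had 41.7% and the other 5 samples lay between 87.5% and 91.7%. In Y36C cells the 5′ end of intron 4 had 1.13% ± 1.20 and 2.87% ± 1.79 (adjusted p = 0.14). The smallest difference was at the 5′ end of intron 7, from 0.216% ± 0.530 to 19.2% ± 4.51 in WT cells, and all 6 samples of Y36C cells under E7107 had 0% there. Among the boundaries with reads in all 24 samples, the largest difference in Y36C cells was 2.59 percentage points, at the 3′ end of intron 4, where it was not tested. It was below the 3.17 percentage points at the 3′ end of intron 3.

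The 2 ends of a CDC25A intron often differed in WT cells under E7107. The median gap between the ends was 17.5 percentage points over 13 introns, against 4.16 in WEE1, 5.04 in PKMYT1, 2.18 in CDC25C and 0.987 in CDC25B. It was largest at intron 5, with 32.7% ± 6.27 at the 5′ end and 75.3% ± 9.16 at the 3′ end. The same 5′ splice site carried the junction that skipped exon 6, described next. Intron 11 is shown because it had an IR PSI of 80.5% ± 4.19 at its 5′ end in WT cells and of 0% to 1.12% in Y36C cells under E7107, and because exon 11 beside it was skipped.
CDC25A intron 11 (chr3:48207225-48207320, minus strand): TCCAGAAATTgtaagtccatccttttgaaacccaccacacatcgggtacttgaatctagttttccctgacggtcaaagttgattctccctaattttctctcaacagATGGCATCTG

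Exon skipping in CDC25A rose in WT cells at 5 junctions between principal splice sites, of which 1 is annotated, and in Y36C cells at the annotated one. A junction skipping exons 3 and 4 to the other 3′ splice site of exon 5 also rose in WT cells and is given below with that site. The annotated junction skipped exon 6 (intron chr3:48219479-48224418), an exon of 120 bases. Its ES PSI at the 5′ splice site was 8.33% to 19.2% in WT cells under DMSO and 49.0% to 62.5% under E7107, a rise of 40.6 percentage points (log odds 1.98 ± 0.17, adjusted p = 8.72e-07). In Y36C cells it was 10.9% to 19.0% under DMSO and 21.2% to 30.9% under E7107, a log-odds rise of 0.66 ± 0.12 (adjusted p = 0.00234). The rise in WT cells was the larger (interaction −1.32 ± 0.21, adjusted p = 2.08e-05). Exon 6 is shown in capitals with 20 intron bases on either side.
CDC25A exon 6 (chr3:48222211-48222330, minus strand): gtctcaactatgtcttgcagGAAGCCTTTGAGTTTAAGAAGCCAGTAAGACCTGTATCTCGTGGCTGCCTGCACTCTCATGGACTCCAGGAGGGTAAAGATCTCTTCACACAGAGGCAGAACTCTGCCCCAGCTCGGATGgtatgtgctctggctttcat

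The other skipping junctions of CDC25A called in WT cells were near 0 under DMSO. Exon 8 (72 bases) was skipped with an ES PSI of 0.427% ± 1.05 in WT cells under DMSO and 51.9% ± 7.40 under E7107 (log odds 4.48 ± 0.24, adjusted p = 1.68e-08), and with 0.552% ± 0.607 and 2.98% ± 2.35 in Y36C cells. The 6 samples of WT cells under E7107 ran from 44.7% to 61.5% and the highest of the other 18 samples was 5.63%. Exon 11 (63 bases), which was looked at after its values were seen, had an ES PSI of 0% in WT cells under DMSO, 39.4% ± 15.5 under E7107, and 0.287% ± 0.445 in Y36C cells under E7107, all at the 5′ splice site. Junctions skipping exons 3 and 4, and exons 3 to 6, had 0% in all samples under DMSO, 32.3% ± 9.08 and 13.9% ± 4.05 in WT cells under E7107, and 0.260% and 0% in Y36C cells under E7107, at the 3′ splice site. Exons 8 and 11, whose lengths are multiples of 3, are shown in capitals with 20 intron bases on either side.
CDC25A exon 8 (chr3:48218861-48218932, minus strand): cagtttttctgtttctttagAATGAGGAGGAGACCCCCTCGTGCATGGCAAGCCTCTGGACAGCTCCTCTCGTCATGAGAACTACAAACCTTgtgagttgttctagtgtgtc
CDC25A exon 11 (chr3:48207321-48207383, minus strand): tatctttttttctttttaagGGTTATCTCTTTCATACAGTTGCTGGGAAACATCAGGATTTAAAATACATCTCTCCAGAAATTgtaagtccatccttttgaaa

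Exon 5 of CDC25A has an annotated pair of 3′ splice sites 3 bases apart, chosen for description after its values were seen. The downstream site took 29.9% of the reads at the 5′ splice site of intron 4 in WT cells under DMSO, 29.4% in Y36C cells under DMSO and 29.3% in Y36C cells under E7107, and 2.78% ± 6.80 in WT cells under E7107, where 1 sample had 16.7% and the median was 0%. IR took 82.0% of the reads at that 5′ splice site in WT cells under E7107, which leaves little for any junction there. The downstream site was still used there by the junction skipping exons 3 and 4 (intron chr3:48224518-48228192), whose PSI at the 3′ site was 0% in all samples under DMSO and 13.8% ± 5.73 in WT and 0.311% ± 0.487 in Y36C cells under E7107 (adjusted p = 1.02e-07 in WT cells). The last 40 bases of intron 4 are in lower case and the first 12 of exon 5 in capitals, of which the first 3 lie between the sites.
CDC25A 3′ splice sites of exon 5 (chr3:48224509-48224560, minus strand): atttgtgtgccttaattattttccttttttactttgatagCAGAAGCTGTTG
A junction at the 5′ end of the CDC25A span (intron chr3:48229706-48229859), annotated but sharing no splice site with the principal transcript, fell in Y36C cells from 75.1% ± 8.19 to 39.3% ± 3.88 (adjusted p = 0.000187). In WT cells its mean was 74.3% under DMSO and 8.19% over the 3 samples with reads under E7107, and it was not tested.

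CDC25B, the phosphatase that acts on CDK1 at the start of mitosis, lies at chr20:3767419-3786768 on the plus strand and has 15 mostly short introns with a median GC content of 58.3%. Its gene mean was 2.34%, 2.55% and 3.43% (lowest, median and highest) in WT cells under DMSO and 31.9%, 33.1% and 35.4% under E7107. In Y36C cells it was 2.80%, 3.20% and 3.56% under DMSO and 8.38%, 8.92% and 9.80% under E7107. Neither E7107 group overlapped with its DMSO group, and the E7107 groups did not overlap with each other. All 30 boundaries were called higher in WT cells. In Y36C cells 27 passed the filter, of which 17 were called higher and 10 were not called. Without the filter 17 of 30 were called higher and 1 lower.

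The retention in Y36C cells was not spread evenly over CDC25B. Introns 3, 4, 5 and 6 had 9.61% to 54.2% under E7107 and introns 8 and 12 had 7.33% to 12.9%, whereas introns 7, 10, 14 and 15 had 0.0718% to 3.18%. At the 5′ end of intron 6, the IR PSI was 6.21%, 7.66% and 9.33% in WT cells under DMSO and 40.5%, 47.9% and 60.5% under E7107. In Y36C cells it was 9.55%, 12.5% and 17.5% under DMSO and 46.4%, 53.1% and 62.7% under E7107. The differences were 41.8 percentage points in WT cells (log odds 2.37 ± 0.14, adjusted p = 3.42e-08) and 41.1 in Y36C cells (2.02 ± 0.15, adjusted p = 5.24e-06). The difference between the 2 changes did not pass the test (log odds −0.35, 95% interval −0.78 to 0.08, adjusted p = 0.175). It was the only boundary of CDC25B, of 30, for which the interaction was not called, and the 3′ end of the same intron had a smaller change in Y36C cells, from 14.2% ± 5.14 to 39.3% ± 4.63 against 6.06% ± 1.90 to 49.1% ± 5.93 in WT cells (adjusted p = 0.000236).

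The largest difference in WT cells was at the 3′ end of intron 5, from 2.74% to 6.77% under DMSO to 42.2% to 65.4% under E7107 (log odds 2.87 ± 0.19, adjusted p = 9.01e-08), and in Y36C cells it went from 7.38% ± 2.27 to 26.7% ± 2.39 (adjusted p = 1.54e-05). The smallest in WT cells was at the 5′ end of intron 11, from 1.73% ± 1.13 to 12.7% ± 3.92. In Y36C cells that end had 2.18% ± 1.32 and 2.54% ± 0.723 (log odds 0.15, 95% interval −0.24 to 0.55, adjusted p = 0.599). Introns 6 and 10 are shown because they had the most and the least retention of CDC25B in Y36C cells under E7107, with GC contents of 66.7% and 63.9%. Intron 6 holds no stop codon in the reading frame of the upstream exon.
CDC25B intron 6 (chr20:3781513-3781617, plus strand): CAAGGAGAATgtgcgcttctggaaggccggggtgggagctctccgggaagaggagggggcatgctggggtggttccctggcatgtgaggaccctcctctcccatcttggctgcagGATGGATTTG
CDC25B intron 10 (chr20:3782748-3782927, plus strand): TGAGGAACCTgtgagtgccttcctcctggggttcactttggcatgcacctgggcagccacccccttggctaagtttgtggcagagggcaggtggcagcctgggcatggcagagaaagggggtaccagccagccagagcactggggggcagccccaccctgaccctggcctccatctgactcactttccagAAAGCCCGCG

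Exon skipping in CDC25B rose in Y36C cells and not in WT cells. Exon 4 (42 bases), for which no skipping junction is annotated, had an ES PSI at the 3′ splice site of 0% to 0.749% in Y36C cells under DMSO and 7.91% to 10.2% under E7107 (log odds 2.00 ± 0.10, adjusted p = 3.95e-07). In WT cells it was 0.287% ± 0.257 and 0.225% ± 0.552. The change was larger in Y36C cells (interaction 2.09 ± 0.20, adjusted p = 1.11e-08). Exon 9 (81 bases), annotated as skipped, went from 0.890% ± 1.09 to 4.69% ± 1.92 in Y36C cells (adjusted p = 0.00567) and had 1.87% in WT cells under both DMSO and E7107 (interaction adjusted p = 0.00952).

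Exon 6 of CDC25B (123 bases), whose skipping is annotated (intron chr20:3781146-3781617), was skipped in all groups. Its ES PSI at the 3′ splice site was 32.3% to 45.3% in WT cells under DMSO and 12.2% to 28.8% under E7107, a fall that passed the test (log odds −0.87 ± 0.18, adjusted p = 0.00153). In Y36C cells it was 22.8% to 33.3% and 31.3% to 43.5% (log odds 0.32 ± 0.12, adjusted p = 0.0677), and at the 5′ splice site it rose from 23.4% ± 2.94 to 31.2% ± 3.64 (adjusted p = 0.0142). Exons 4 and 6 are shown in capitals with 20 intron bases on either side.
CDC25B exon 4 (chr20:3780935-3780976, plus strand): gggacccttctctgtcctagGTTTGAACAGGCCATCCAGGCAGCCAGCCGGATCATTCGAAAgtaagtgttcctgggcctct
CDC25B exon 6 (chr20:3781390-3781512, plus strand): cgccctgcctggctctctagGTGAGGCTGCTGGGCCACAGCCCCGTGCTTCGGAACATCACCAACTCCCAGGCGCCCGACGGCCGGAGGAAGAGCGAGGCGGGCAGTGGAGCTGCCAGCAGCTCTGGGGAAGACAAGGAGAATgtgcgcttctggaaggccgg
An annotated junction from a 5′ splice site upstream of exon 1 to exon 2 (intron chr20:3776527-3778268) fell by 1.36 on the log-odds scale in WT cells, from a median of 5.81% to a median of 0% (adjusted p = 0.0078) and had 6.42% ± 1.36 and 4.03% ± 2.01 in Y36C cells (adjusted p = 0.109).

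Because IR takes part of the reads at a splice site, the 6 annotated skipping junctions were also taken as a share of spliced reads alone, and tested with an exact permutation test, two-sided, with 6 samples on each side. The smallest p it can give is 0.002165, and p was adjusted over 12 tests. This measure was added after the values had been seen. For CDC25B exon 6 it was 40.1% ± 5.25 and 40.2% ± 14.3 in WT cells under DMSO and E7107 (adjusted p = 0.983), and 33.0% ± 4.97 and 58.4% ± 5.25 in Y36C cells (adjusted p = 0.00866). For CDC25A exon 6 it went from 15.2% ± 6.09 to 58.1% ± 5.67 in WT cells and from 15.5% ± 3.11 to 27.6% ± 4.42 in Y36C cells (both adjusted p = 0.00866).

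CDC25C, the phosphatase held back by 14-3-3 proteins until mitosis, lies at chr5:137620958-137674044 on the minus strand and has 13 introns with a GC content of 35.2% to 54.5%. Its PSI values moved in coarse steps, and few rows passed the filter. The gene mean was 1.53%, 3.49% and 4.63% in WT cells under DMSO and 3.94%, 6.20% and 10.8% under E7107, and 1.45%, 2.05% and 3.17% against 2.67%, 4.44% and 9.10% in Y36C cells. The groups overlapped in both genotypes. Of 26 boundaries, 1 passed the filter in WT cells and was not called, and 0 of 26 were called without the filter, although 1 had an unadjusted p under 0.05 with it. In Y36C cells 5 passed and 2 were called higher, against 1 of 26 without the filter.

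The largest difference in WT cells was at the 3′ end of intron 1, where IR PSI was 0% in 5 samples and 14.3% in the other under DMSO, and 50.0%, 28.6%, 28.6%, 40.0%, 0% and 0% under E7107, and it was not tested. The smallest was at the 3′ end of intron 5, with 7.21% ± 6.72 and 7.22% ± 13.4. In Y36C cells the 3′ end of intron 8 rose from 1.77% ± 2.77 to 19.4% ± 14.4 (log odds 2.42 ± 0.51, adjusted p = 0.00576), the 6 samples under E7107 running from 5.56% to 46.2%. The 5′ end of intron 1 rose from 2.09% ± 3.42 to 11.6% ± 9.32 (adjusted p = 0.0266), and in WT cells, where it was not tested, it had 2.98% ± 3.30 and 18.1% ± 13.1 (interaction 0.06, adjusted p = 0.968). For intron 8 the interaction was not called (adjusted p = 0.0751).

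Skipping of exons rose in CDC25C in Y36C cells at 3 junctions, and 0 of the 6 skipping rows tested in WT cells were called by limma. Exons 5 and 6 (34 and 90 bases) were skipped together by an annotated junction (intron chr5:137655064-137664172). Its ES PSI at the 5′ splice site was 23.1% to 36.4% in WT cells under DMSO, 7.69% to 40.0% under E7107, 24.0% to 39.5% in Y36C cells under DMSO and 43.8% to 65.2% under E7107. The E7107 group of Y36C cells lay above all other samples, and the 3 other groups overlapped. The rise in Y36C cells was 25.7 percentage points (log odds 1.07 ± 0.16, adjusted p = 0.000789) and that in WT cells did not pass the test (log odds −0.43, 95% interval −1.13 to 0.26, adjusted p = 0.279), with an interaction of 1.51 ± 0.36 (adjusted p = 0.00147).

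Exon 9 of CDC25C (102 bases) was skipped by a junction without annotation, with an ES PSI of 3.14% ± 4.34 and 21.3% ± 8.92 in Y36C cells (adjusted p = 0.00529) and 3.88% ± 3.91 and 7.87% ± 7.46 in WT cells, where it was not tested (interaction adjusted p = 0.0773). Exon 3 (95 bases), annotated as skipped, had 46.3% ± 11.5 and 47.0% ± 17.0 in WT cells and 38.9% ± 7.17 and 55.7% ± 12.1 in Y36C cells at the 3′ splice site (adjusted p = 0.981 and 0.0497). The latter call was lost under 6 of 8 alternatives. At its 5′ splice site this junction had 42.3% ± 7.82 and 60.1% ± 10.2 in Y36C cells (limma adjusted p = 0.0336). In WT cells it had 44.1% ± 10.2 and 41.9% ± 8.69 there (adjusted p = 0.761, interaction 0.82 ± 0.31, adjusted p = 0.0344). Without the filter, 2 junctions skipping exons of CDC25C were called higher in Y36C cells. The annotated junction that skips exon 6 alone had means of 1.33% to 7.82% in the 4 groups and was not tested. Taken over spliced reads alone, the exact permutation test gave adjusted p = 0.0104 for exons 5 and 6 and 0.0390 for exon 3 in Y36C cells, and 0.317 and 0.983 in WT cells. Exons 5 and 6 are shown in capitals with 20 intron bases on either side.
CDC25C exon 5 (chr5:137661710-137661743, minus strand): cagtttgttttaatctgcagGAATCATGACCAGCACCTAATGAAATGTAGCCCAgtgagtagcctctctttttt
CDC25C exon 6 (chr5:137661504-137661593, minus strand): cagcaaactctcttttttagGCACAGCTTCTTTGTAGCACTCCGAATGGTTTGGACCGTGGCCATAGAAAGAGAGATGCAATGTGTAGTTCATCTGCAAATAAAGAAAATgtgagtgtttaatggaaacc

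**Figure D3:**
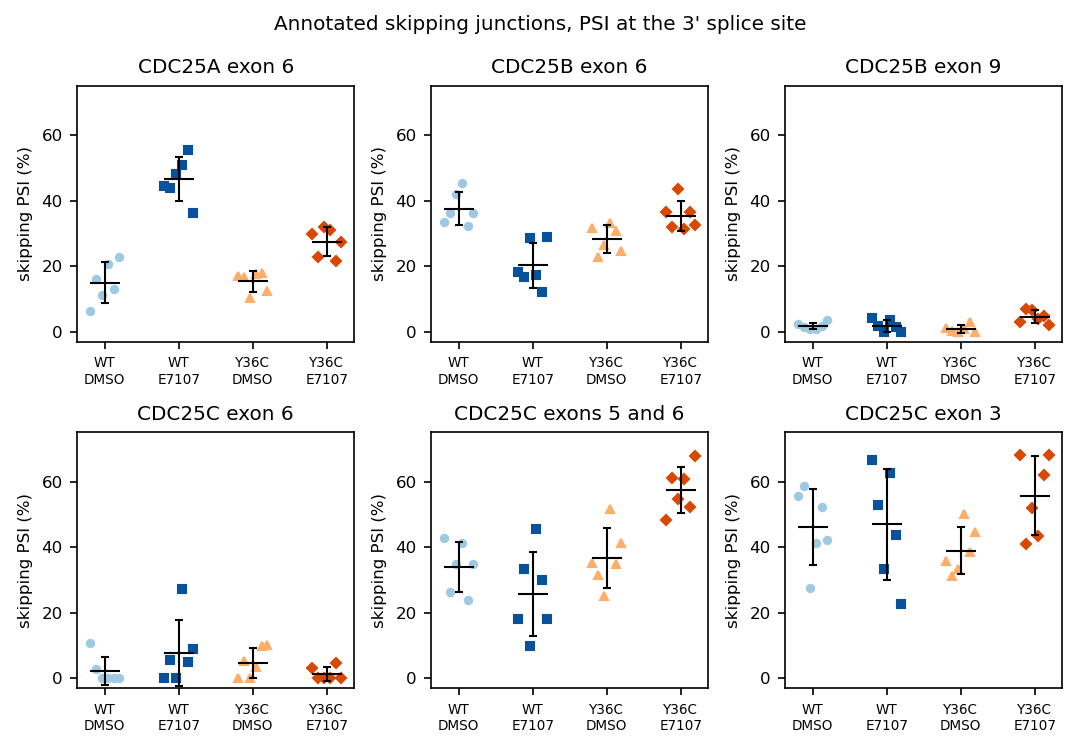
ES PSI in percent at the 3′ splice site for the 6 annotated skipping junctions, with 1 point per sample, a black line for the mean and bars for the SD over 6 samples in each of the 4 groups. CDC25A exon 6 is highest in WT cells under E7107 (mean 46.6%) and CDC25C exons 5 and 6 in Y36C cells under E7107 (mean 57.6%), while CDC25B exon 6 is lowest in WT cells under E7107 (mean 20.3%).

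PKMYT1, the membrane-bound kinase, lies at chr16:3018025-3030480 on the minus strand and has 8 introns with a median GC content of 61.0%, the highest of the 5 genes. Its gene mean was 11.6%, 12.2% and 12.7% in WT cells under DMSO and 13.4%, 16.5% and 21.9% under E7107, and 10.2%, 10.9% and 12.1% against 18.9%, 21.0% and 22.3% in Y36C cells. The E7107 samples lay above the DMSO samples in both genotypes, and the E7107 groups overlapped with each other. All 16 boundaries passed the filter. In WT cells 8 were called higher, and in Y36C cells 12 (10 without the filter), with none lower.

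PKMYT1 introns 1, 2, 3, 5 and 6 had a called end in both genotypes, and introns 4 and 7 had one in Y36C cells and none in WT cells, which is not itself a test of the difference. The 8 boundaries called in WT cells were the 5′ end of intron 1, the 3′ end of intron 5 and both ends of introns 2, 3 and 6, and the largest difference there was at the 5′ end of intron 2, from 8.71% to 16.1% under DMSO to 22.5% to 38.4% under E7107 (means 12.8% and 31.4%, log odds 1.09 ± 0.17, adjusted p = 0.00014). In Y36C cells the same end went from 9.53% ± 1.63 to 15.2% ± 3.26 (adjusted p = 0.0113), less than in WT cells (interaction −0.60 ± 0.21, adjusted p = 0.0236). At the 3′ end of intron 5, the 6 values were 6.70% to 10.9% and 10.7% to 18.2% in WT cells under DMSO and E7107, and 4.58% to 10.8% and 23.7% to 42.9% in Y36C cells. The E7107 samples of Y36C cells lay above all others. The rise was 24.8 percentage points in Y36C cells (log odds 1.75 ± 0.18, adjusted p = 5.84e-05) and 4.48 in WT cells (0.41 ± 0.13, adjusted p = 0.0179), and the interaction was 1.33 ± 0.23 (adjusted p = 4.02e-05).

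Introns 4 to 6 of PKMYT1 went the same way in Y36C cells, with 17.6% to 31.6% under E7107 against 3.75% to 10.8% under DMSO. At both ends of intron 6 the rise was called in both genotypes and the interaction was not (adjusted p = 0.0996 and 0.187). The 5′ end of intron 7 had the smallest difference in WT cells, with 4.78% ± 1.23 and 4.78% ± 1.87 (log odds −0.02, 95% interval −0.38 to 0.33, adjusted p = 0.932), and rose in Y36C cells from 2.71% ± 0.931 to 11.2% ± 3.73 (adjusted p = 0.000665, interaction adjusted p = 0.0002). The 3′ end of intron 7 and both ends of intron 8 had 25.1% to 46.3% in all 4 groups. They lie inside the span of PAQR4 (3019271 to 3023485 on chromosome 16), a gene on the opposite strand, and it is not stated whether the libraries kept the strand. The part of PAQR4 reads in these values was not tested. Introns 5 and 6 are shown because both ends were higher in Y36C cells under E7107 than under DMSO. Their GC contents are 67.4% and 72.4%, and intron 6 holds no stop codon in frame.
PKMYT1 intron 5 (chr16:3024419-3024550, minus strand): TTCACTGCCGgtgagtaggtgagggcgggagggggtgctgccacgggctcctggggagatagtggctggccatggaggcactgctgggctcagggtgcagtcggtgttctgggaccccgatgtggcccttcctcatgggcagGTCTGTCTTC
PKMYT1 intron 6 (chr16:3024159-3024245, minus strand): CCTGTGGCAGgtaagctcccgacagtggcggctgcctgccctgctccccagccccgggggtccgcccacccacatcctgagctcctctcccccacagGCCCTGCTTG

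Exon 6 of PKMYT1 (173 bases) was skipped with an ES PSI of 0% in 5 samples of Y36C cells under DMSO and 0.329% in the other, and 1.71% to 5.51% under E7107 (a rise of 3.69 percentage points, adjusted p = 3.8e-05). In WT cells it had 0.698% ± 0.496 and 1.21% ± 0.956 (interaction adjusted p = 0.000801). Near the 5′ end of the gene, an annotated junction sharing the 5′ splice site of exon 1 (intron chr16:3029938-3030286) had a PSI at its 3′ splice site of 64.0% to 88.9% in WT cells under DMSO and 13.3% to 62.5% under E7107 (adjusted p = 0.00499), and of 81.6% ± 6.54 and 81.0% ± 8.15 in Y36C cells. Another annotated junction, from a different 5′ splice site to exon 2 (intron chr16:3029914-3030219), fell from 91.7% ± 12.9 to 55.7% ± 25.5 in Y36C cells (adjusted p = 0.0183). In WT cells it had 69.8% ± 42.9 under DMSO, with samples from 0% to 100%, and 15.9% ± 9.70 over the 5 samples with reads under E7107, and it was not tested.

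Under DMSO the genotypes were compared over 66 boundary rows and 156 spliced rows of the 5 genes that passed the filter. None was called higher or lower by limma, where 0.204% and 0.165% of all boundary rows and 0.118% and 0.124% of all spliced rows were. Without the filter 0 of the 120 principal boundaries were called in either direction, against 0.0348% and 0.0243% of all boundary rows. At an unadjusted p under 0.05 with the filter there were 9 boundary rows and 19 spliced rows. The 5′ end of CDC25B intron 6, which had 7.62% ± 1.25 in WT and 13.1% ± 2.96 in Y36C cells, did not pass the test (log odds 0.54, 95% interval 0.28 to 0.80 without adjustment, adjusted p = 0.111).

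Under E7107, 78 of the 96 principal boundaries that passed the filter had a lower IR PSI in Y36C than in WT cells and 7 a higher, where 62.9% of all boundary rows were lower and 11.7% higher. The lower ones were all 26 tested in CDC25A, all 20 in WEE1, 29 of 30 in CDC25B and 3 of 16 in PKMYT1. The higher ones were 6 in PKMYT1 and 1 in CDC25C. Without the filter 78 of 118 were lower and 5 higher, against 37.6% and 6.33% of all boundary rows. The interaction of genotype and treatment was called for 77 boundaries with a lower estimate of the change in Y36C than in WT cells and 6 with a higher one, against 54.9% and 8.97% of all boundary rows, and without the filter for 76 and 6 of 118, against 34.0% and 4.68%. Of the 6, 5 were in PKMYT1 and 1 was in CDC25C (the 5′ end of intron 10). The E7107 comparison and the interaction share samples with the comparisons above and are not separate evidence.

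**Figure D4:**
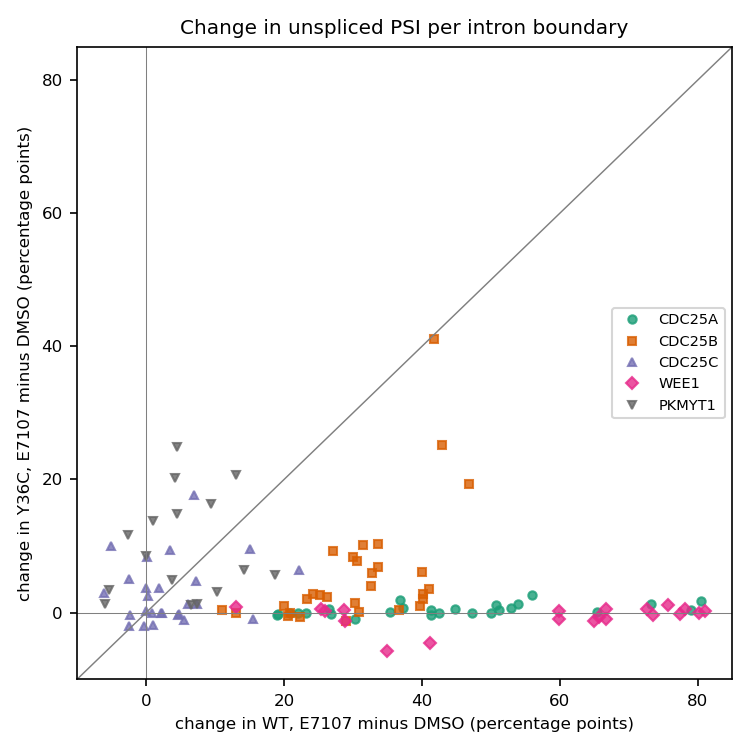
Difference in IR PSI between E7107 and DMSO, in percentage points, in WT cells (x axis) and Y36C cells (y axis) for the 118 intron boundaries with reads in all 24 samples, coloured by gene, with a grey diagonal where the differences would be equal. WEE1 and CDC25A lie along the horizontal axis, the boundary of CDC25B at the diagonal is the 5′ end of intron 6 (41.8 and 41.1), and part of PKMYT1 lies above the diagonal.

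Among the spliced rows of the 5 genes, 166 passed the filter in WT cells, and 24 were called higher and 89 lower, where 7.32% and 39.0% of all spliced rows were. In Y36C cells 160 passed, and 18 were called higher and 43 lower, where 7.06% and 14.5% of all spliced rows were. The rows joining neighbouring exons of the principal transcripts account for most of the lower calls. In WT cells these were 26 of 26 tested in CDC25A, 30 of 30 in CDC25B, 20 of 20 in WEE1, 7 of 16 in PKMYT1 and 0 of 26 in CDC25C, and in Y36C cells 4, 16, 0, 12 and 8. Between the genotypes under E7107, 95 of 171 spliced rows were higher in Y36C cells and 33 lower, where 38.4% and 11.8% of all spliced rows were, and the interaction was positive for 90 of 177 and negative for 33, against 32.5% and 9.06%. The skipping junctions called higher were 10 in WT cells (5 each in CDC25A and WEE1) and 9 in Y36C cells (3 each in CDC25B and CDC25C, 2 in PKMYT1 and 1 in CDC25A). The rows called in WT cells, except those skipping exon 6 of CDC25A, and part of those called in Y36C cells were at or near 0 under DMSO and passed the filter through the E7107 samples. Without the filter, 20 of 126 skipping rows (10 junctions) were called higher in WT cells and 15 of 128 (8 junctions) in Y36C cells, against 3.07% and 2.51% of all spliced rows, which include junctions of every kind.

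The introns of the 5 genes differ in base composition. Over the 59 introns with reads in all samples, the WT difference, taken as the mean of the ends, had a Pearson's r of −0.379 with GC content, and the Y36C difference had one of 0.490 (Spearman's rho −0.282 and 0.433). Without the 13 introns of CDC25C, a choice that was not planned and was made with results known, r was −0.658 and 0.537 over 46 introns. Spearman's rho was −0.586 and 0.529 there. Introns of the same gene share a transcript and a base composition, so these values describe 59 introns and are not a test. They include introns 7 and 8 of PKMYT1, which have ends inside PAQR4. With the logarithm of intron length r was −0.123 and −0.283. Of the 58 introns that interrupt the coding sequence, 54 hold a stop codon in the frame of the upstream exon, and the other 4 are introns 6 and 7 of CDC25B, intron 5 of CDC25C and intron 6 of PKMYT1. All 60 introns begin with GT and end with AG.

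**Figure D5:**
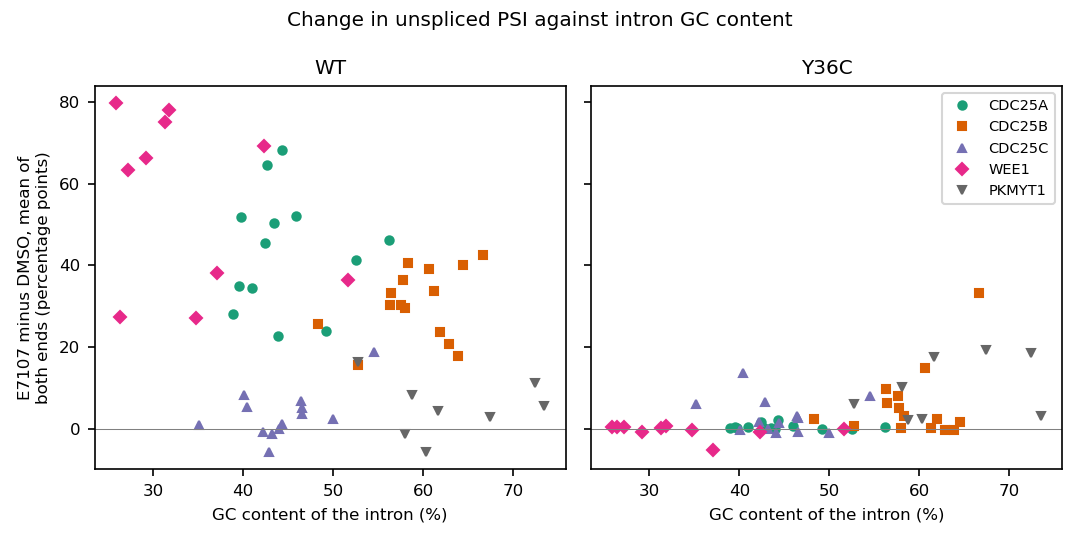
Difference in IR PSI between E7107 and DMSO, as the mean of the ends of each intron in percentage points (y axis), against the GC content of the intron in percent (x axis), for WT cells (left) and Y36C cells (right), with 59 introns coloured by gene. In WT cells the largest differences are those of AT-rich introns of WEE1, but not all such introns are high. Introns 9 and 10 of WEE1 (26.4% and 34.8% GC) had 27.3 and 27.1 percentage points. In Y36C cells the introns with over 10 percentage points are introns 5 and 6 of CDC25B, introns 4 to 7 of PKMYT1 and intron 8 of CDC25C. Other GC-rich introns of the same genes changed less, such as intron 1 of PKMYT1 (73.5% GC, 3.05 percentage points). Introns 9 and 10 of CDC25B (64.5% and 63.9% GC) had 1.51 and −0.344 percentage points.

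A list of 34 other genes of CDK1 control (cyclins, checkpoint kinases, 14-3-3 proteins, ubiquitin ligases and related factors) gives the surroundings of the 5 genes. SFN has no intron, and the other 33 had 661 boundaries with reads in all samples, with a median difference of 4.76 percentage points in WT and 0.153 in Y36C cells. In WT cells 316 of 376 boundaries tested were called higher and 19 lower, and in Y36C cells 61 of 265 were higher and 5 lower, beside the 70.9%, 5.78%, 27.5% and 1.43% of all boundary rows given above. Without the filter 333 of 661 were higher and 23 lower in WT cells, and 48 of 702 higher and 4 lower in Y36C cells, against 40.5%, 3.11%, 7.43% and 0.312% of all boundary rows. FZR1, an activator of the anaphase-promoting complex, had the largest median difference in WT cells, at 60.6 percentage points (1.44 in Y36C cells), and RBX1, a subunit of cullin ubiquitin ligases, had the smallest, at −0.49. The median in Y36C cells exceeded that in WT cells in 3 of these 33 genes, and among the 5 members in PKMYT1 alone, with 7.43 against 4.47 percentage points. The PKMYT1 medians include the boundaries inside PAQR4. Without those, its mean IR PSI went from 7.25% to 14.7% in WT cells and from 6.16% to 17.0% in Y36C cells.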

How the data were processed

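RNA-seq reads of 24 HCT116 samples were aligned by the authors with STAR to hg19 (versions and strandedness are not given in the sources used here), and splice-site usage was deposited as PSI in percent, without read counts. A splice site without reads sums to 0 and was treated as missing. The 6433 mitochondrial or strandless rows were left out. Principal transcripts (MANE Select) came from GENCODE v44lift37 and sequences from GRCh37. A row was tested if its splice site had reads in each sample used and if 1 of the groups had no sample at 0. PSI was converted to natural-log odds after 1 percentage point had been added to it and to its complement and fitted with limma 3.58.1 (R 4.3.3), with 12 samples per comparison and 24 for the interaction, with Benjamini-Hochberg adjustment over all rows and a threshold of 0.05. The limma step was run on simulated, normally distributed log odds, with shifts only in rows that varied. That does not test the filter or rows at 0, and its outcome is not given here. Genes, lists and tests were chosen with earlier results of these data known. Per gene, a rule picked the boundaries with the largest difference in each genotype and the smallest in WT cells. It also picked up to 2 other junctions per genotype with the largest called difference, and annotated skipping junctions. Other rows given with values lie outside this rule. Only some of them are marked where they stand as added after their values were seen. Alternatives were other offsets, PSI itself, no filter, the replicate number as a block, a limma trend, a fit of all samples, and a minimum difference of 10 percentage points for a call.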

Additional observations from a re-analysis of the deposited data

Results flagged for a closer look

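Of 151 groups of 6 samples examined for the described rows, 15 held a sample set apart from the others by Dixon's criterion. Its nominal rate of about 5% is for values without ties and is no measure here. Where all other samples of a group were at 0, a lone value above 0 was flagged whatever its size. In CDC25A these were the 3′ end of intron 4 in WT cells under DMSO (6.78%), the 5′ end of intron 7 in the same group (1.30%), the 5′ end of intron 4 in WT cells under E7107 (41.7%, replicate 2) and the exon 8 skip in WT cells under DMSO (2.56%). In CDC25B it was the exon 4 skip in WT cells under E7107 (1.35%). In CDC25C these were, in WT cells under E7107, the 3′ ends of intron 8 (50.0%) and intron 5 (33.3%) and the exon 6 skip (27.3%), in WT cells under DMSO the 3′ end of intron 1 (14.3%) and the exon 6 skip (10.7%), and in Y36C cells under DMSO the 3′ end of intron 1 (7.14%) and the exon 9 skip (11.1%). In PKMYT1 it was the exon 6 skip in Y36C cells under DMSO (0.329%), and in WEE1 the 3′ end of intron 3 in WT cells under DMSO (2.17%) and the exon 3 skip in Y36C cells under E7107 (0.595%).

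The effect of E7107 differed between the genotypes by the interaction test for 24 of the 34 rows picked by the rule above. They are given here as the change in Y36C minus that in WT cells, in percentage points. Rows outside the rule are not listed, although some given in the Results also had a called interaction. In WEE1 they were −80.7 at the 3′ end of intron 3, −74.6 at the 5′ end of intron 7, −12.3 at the 3′ end of intron 1, −58.8 for the alternative 5′ splice site and −6.81 for the exon 3 skip. In CDC25A they were −78.8 and −53.4 at the 5′ and 3′ ends of intron 4, −19.3 at the 5′ end of intron 7, −29.6 and −19.4 for the exon 6 skip at its 5′ and 3′ sites, and −49.0 for the exon 8 skip. In CDC25B they were −27.5 at the 3′ end of intron 5, −10.6 at the 5′ end of intron 11, 23.8 and 24.5 for the exon 6 skip at its 5′ and 3′ sites, 8.53 for the exon 4 skip and 3.80 for the exon 9 skip. In CDC25C they were 32.2 and 29.1 for the skip of exons 5 and 6 at its 5′ and 3′ sites. In PKMYT1 they were 20.3 at the 3′ end of intron 5, 8.46 at the 5′ end of intron 7, −12.9 at the 5′ end of intron 2, 35.0 for the junction to the other 3′ splice site in intron 1 and 3.18 for the exon 6 skip. With an offset of 0.1 percentage points, the interactions at the 3′ end of WEE1 intron 1 and the 5′ end of PKMYT1 intron 2 were not called (limma adjusted p = 0.291 and 0.0538).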

How the results depend on the processing

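Among 126 tested values of the rows picked by the rule, no direction reversed in 975 recalculations. Of these, 931 stayed on the same side of the threshold, 40 lost a call and 4 gained it. A minimum difference of 10 percentage points accounted for 20 of the lost calls, and lowered the boundary rows called higher in Y36C cells from 34 to 15, the boundary rows called lower in WT cells from 2 to 0, the spliced rows called higher from 24 to 13 in WT and 18 to 8 in Y36C cells, and those called lower in Y36C cells from 43 to 28. The 2 boundary rows called lower in WT cells became 1 with an offset of 0.1 percentage points, with no filter on low values and with all 24 samples in 1 fit. Boundary rows called lower in Y36C cells went from 0 to 1 with no filter and with the replicate block, and rows called higher in Y36C than in WT cells under DMSO from 0 to 1 in the fit of all samples.

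No pairing by replicate number was seen, as deviations of same-numbered samples had correlations of −0.00586 to 0.00804 over 380303 rows. With the depth behind each PSI unknown, these values cannot show whether same-numbered samples were handled together. With the replicate block, boundary rows called higher were 84 in WT cells (86 without it) and 27 in Y36C cells (34 without it).

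The median over the boundaries of a gene was lower than the mean for most groups. With WT cells first, and DMSO before E7107 in each genotype, it was 1.57%, 66.6%, 1.51% and 1.35% for WEE1 and 0.681%, 1.40%, 0.00% and 1.11% for CDC25C. In WT DMSO, Y36C DMSO and Y36C E7107 it was 0.577%, 0.0725% and 0.280% for CDC25A and 2.18%, 1.99% and 4.89% for CDC25B, and under DMSO it was 8.57% in WT and 7.40% in Y36C cells for PKMYT1. Over all boundary rows of the span the mean was, in the order of the 4 groups, 5.72%, 35.3%, 6.24% and 11.8% for CDC25B and 17.6%, 24.1%, 16.2% and 25.0% for PKMYT1. It was 3.79%, 3.38% and 3.78% for CDC25A without WT E7107, and 5.41% and 4.46% for CDC25C under DMSO. These rows include splice sites outside the principal transcripts, where reads crossing the boundary may come from exons. Leaving out the 3 PKMYT1 boundaries inside PAQR4, chosen after seeing the data, gave 7.25% and 6.16% under DMSO in WT and Y36C cells, and 17.0% in Y36C cells under E7107. Depth is unknown, and the coarse steps of CDC25C limit what could be detected there.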
